A study of Homo sapiens with 8 samples.

Results

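SIRPA, CD47 and 4 genes that act with them were examined in HepG2 cells, a human hepatic tumour cell line, in which GRHL2, an epithelial transcription factor, was expressed from a plasmid. The genes were taken by symbol and comprise the receptor gene SIRPA, its ligand gene CD47, the phosphatase genes PTPN6 and PTPN11, the enzyme gene QPCTL and the thrombospondin gene THBS1. SIRPA was itself selected on its measured increase in this comparison, and the other 5 genes were added as its known partners. All 6 had values, among the 17561 genes of the table. RNA was collected 48 h after transfection, and mRNA libraries were made from 4 replicates given the GRHL2 plasmid (pGRHL2) and 4 given the control plasmid pcDNA3. Both groups were grown on gelatin in William's E medium with serum, insulin and dexamethasone. The pGRHL2 construct carried a flag-tagged GRHL2 cDNA behind an EEF1A1 promoter and also encoded EGFP, whereas pcDNA3 has another backbone. An effect of GRHL2 and one of the rest of the plasmid therefore cannot be told apart, and the share of cells that took up a plasmid was not analysed here.

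SIRPA is a membrane receptor best known from macrophages and neurons. When it binds CD47 on a neighbouring cell, tyrosines in the inhibitory motifs of its cytoplasmic tail are phosphorylated and recruit the phosphatases SHP-1 (PTPN6) and SHP-2 (PTPN11). This dampens phagocytosis, so that CD47 is called a "don't eat me" signal. QPCTL cyclizes the N-terminal glutamine of CD47 and thereby strengthens its binding to SIRPA, and thrombospondin 1 (THBS1) is a secreted matrix protein that also binds CD47.

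Values are the deposited log2 values, set relative to transcript length, so that a difference of 1 is a doubling. In 17561 of 17561 genes, averaging the pGRHL2 and pcDNA3 libraries that bear the same number gave 1 value for all 4 numbers, so that both groups have the same SD and mirror each other. Libraries of the same number were therefore read as 4 pairs, and log2 FC stands for the mean log2 difference, pGRHL2 minus pcDNA3, followed by the SD between pairs. In such values, groups that do not overlap and pair differences of a single sign are the same observation. Library medians lay between 6.71 and 6.73, and the read depth behind the values was unknown. GRHL2 lay between 16.2 and 16.9 in pGRHL2 and between 6.61 and 7.25 in pcDNA3, so that all 8 libraries matched their labels. The pcDNA3 values are not read as endogenous expression, since RT-qPCR in the study found GRHL2 low or not detectable in basal conditions.

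Since GRHL2 binds DNA, the 250 bases before annotated transcription starts were read (RefSeq, GRCh38.p14), and 5 such windows were found for 4 of the 6 genes. SIRPA and PTPN11 had no entry. The gene spans given here come from GENCODE, and each RefSeq start was set against the outer end of the span. Starts of single GENCODE transcripts were not compared. The RefSeq start lay 831 bases inside the GENCODE span for CD47, 263 for QPCTL, 109 and 4888 for PTPN6, and 0 for THBS1. Grainyhead proteins bind the palindrome AACCGGTT and looser forms of AACNNGTT, which includes the former, and each reads the same on both strands. Neither was present in any of the 5 windows, and they were found in 0.117% and 3.0% of all 35116 windows of this length. The closest word matched AACCGGTT at 6 of 8 bases in CD47 (105 bases before the start) and in QPCTL (40 bases before it), a match that 41.1% of all windows held or exceeded. In PTPN6 and THBS1 the closest words matched at 5 of 8 bases, as 98.5% of windows did or exceeded. The windows of CD47 and PTPN6 are printed with these words in capitals, 5′ to 3′ along the gene. CD47 is shown as the gene of the ligand, and PTPN6 because its starts lie 4779 bases apart and the gene is known to have separate epithelial and blood cell promoters, which a value per gene merges.
CD47 window, chr3:108091032-108091281, minus strand: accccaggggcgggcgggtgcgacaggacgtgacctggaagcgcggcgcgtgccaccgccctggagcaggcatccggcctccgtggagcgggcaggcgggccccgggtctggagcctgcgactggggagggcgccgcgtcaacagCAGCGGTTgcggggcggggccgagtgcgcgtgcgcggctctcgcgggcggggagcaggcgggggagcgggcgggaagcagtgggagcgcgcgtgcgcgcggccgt
PTPN6 upstream window, chr12:6946327-6946576, plus strand: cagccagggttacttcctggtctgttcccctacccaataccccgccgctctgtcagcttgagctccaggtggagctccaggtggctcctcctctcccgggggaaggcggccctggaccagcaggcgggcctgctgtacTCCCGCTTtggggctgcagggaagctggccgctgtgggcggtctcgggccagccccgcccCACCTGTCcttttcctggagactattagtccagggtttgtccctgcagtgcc
PTPN6 downstream window, chr12:6951106-6951355, plus strand: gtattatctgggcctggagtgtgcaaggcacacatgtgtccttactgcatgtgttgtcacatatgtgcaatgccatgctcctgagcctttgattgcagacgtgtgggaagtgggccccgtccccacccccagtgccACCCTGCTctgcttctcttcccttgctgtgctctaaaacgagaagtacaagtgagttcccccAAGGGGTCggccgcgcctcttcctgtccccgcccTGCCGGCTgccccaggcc
The CD47 window was 79.6% G and C with 39 CpG dinucleotides, the upstream PTPN6 window 66.4% with 10, and the downstream PTPN6 window 59.6% with 8. The capitals mark letters only and are no evidence of binding. The study also mapped GRHL2 binding in transfected HepG2 cells by ChIP-seq, which was not read here.

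SIRPA is a plus-strand gene on chromosome 20 (1894167 to 1940592, hg38). Its log2 values were 4.32, 4.36, 4.16 and 4.36 in pGRHL2 libraries 1 to 4 and 3.49, 3.45, 3.65 and 3.46 in pcDNA3 libraries 1 to 4. Each pGRHL2 library lay above each pcDNA3 library. The pair differences were 0.83, 0.91, 0.51 and 0.90, giving a log2 FC of 0.79 ± 0.19 (SD, n = 4 pairs), a 1.73-fold higher value. Pair 3 had the smallest difference, and without it the log2 FC was 0.88. These values chose the gene, so they are a description without a test. In bulk RNA, more cells with the transcript and more transcript per cell cannot be told apart.

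By log2 FC, SIRPA held rank 7 of 17561. In the ranking from which it was picked, EFHD1 lay just before it with a log2 FC of 0.89 ± 0.14, and HSPB8, a small heat shock protein gene, lay just after it with 0.78 ± 0.27. SIRPA was a weakly expressed gene, with a mean log2 value of 3.91 against a median of 6.72 over all genes. Of 1166 other genes with a mean level within 0.5 of it, 0 had a larger log2 FC, which restates its selection by size and is no separate evidence. The rlog transformation used by the authors can shrink differences of genes with few reads. Whether it did so for SIRPA was not tested, since the level is per length and the depth unknown.

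The sequence of SIRPA is partly shared with other genes. The authors counted only reads above a minimum alignment quality, and the effect of this on the SIRPA value was not tested. Of the 50-base words of the longest SIRPA transcript, 13.4% also occurred in transcripts of other genes, among them SIRPB1, SIRPG and the pseudogene SIRPAP1. Of the SIRPA exon bases, 4.20% overlapped an unnamed gene. SIRPAP1, named after its values were seen, lay at -0.19 in pGRHL2 and -0.17 in pcDNA3 on average, near the bottom of the table, and was not called (log2 FC of -0.02 ± 0.01, n = 4 pairs, BH-adjusted p (limma) of 0.469). SIRPB1, SIRPB2, SIRPD and SIRPG were not analysed here.

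**Figure D1:**
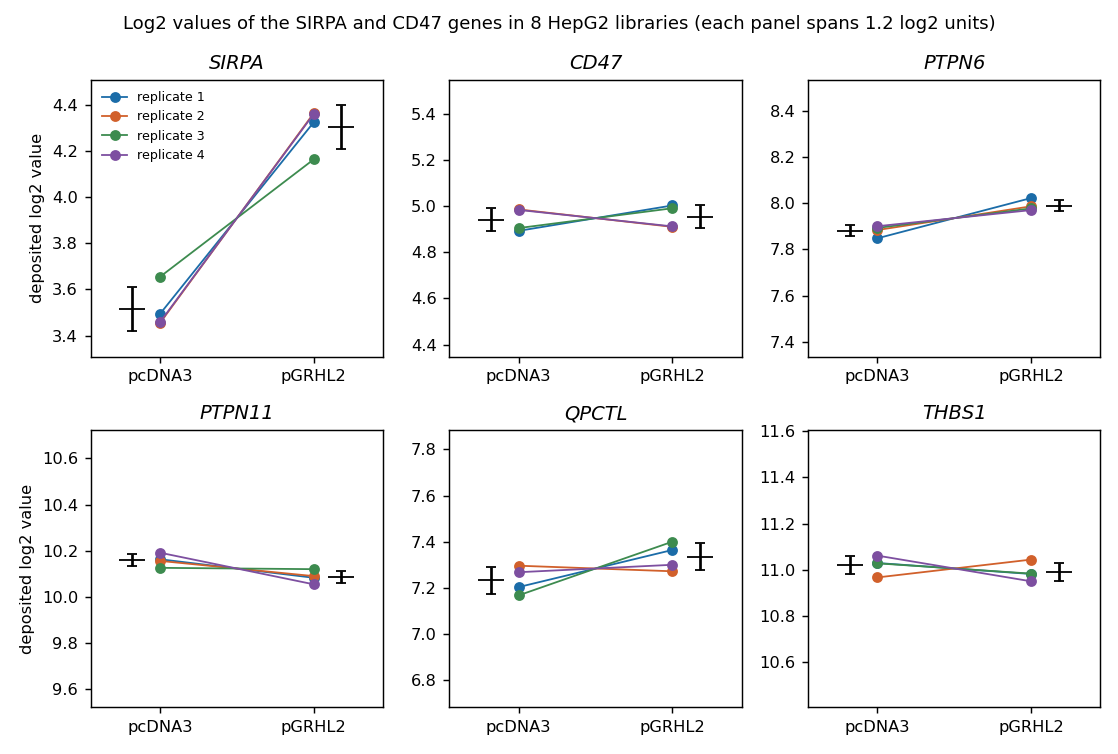
Deposited log2 value (vertical axis) of each of the 6 genes in the pcDNA3 and pGRHL2 libraries, with lines joining libraries of the same number and black bars giving the group mean and SD (n = 4). SIRPA lies between 4.16 and 4.36 in pGRHL2 and between 3.45 and 3.65 in pcDNA3, whereas the other panels are nearly flat.

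CD47 showed no difference of the kind seen for its receptor. It is a minus-strand gene on chromosome 3 (108043091 to 108091862). Its values were 5.00, 4.91, 4.99 and 4.91 in pGRHL2 libraries 1 to 4 and 4.89, 4.99, 4.90 and 4.98 in pcDNA3 libraries 1 to 4. The groups covered nearly the same range, with pairs 1 and 3 higher and pairs 2 and 4 lower in pGRHL2. The log2 FC was 0.01 ± 0.10 (SD, n = 4 pairs; 95% confidence interval of -0.09 to 0.12; BH-adjusted p (limma) of 0.94). Its sign turned without replicate 1 (-0.0204) and without replicate 3 (-0.0123), with quantile normalization (-0.0047) and with the trend on level removed (-0.0089), so that no direction is given. Per mean transcript length, CD47 exceeded SIRPA by 1.25 to 1.53 in the pcDNA3 libraries and by 0.55 to 0.83 in the pGRHL2 libraries. Per longest transcript, with lengths from GENCODE, SIRPA lay above CD47 in pGRHL2 (4.07 to 4.27 against 3.82 to 3.91).

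QPCTL encodes the Golgi glutaminyl cyclase that acts on CD47 and is a plus-strand gene on chromosome 19 (45692403 to 45703989). Its values were 7.36, 7.27, 7.40 and 7.30 in pGRHL2 and 7.20, 7.30, 7.17 and 7.27 in pcDNA3. The groups overlapped, with pair 2 lower and the other 3 pairs higher in pGRHL2. The log2 FC was 0.10 ± 0.12 (SD, n = 4 pairs; 95% confidence interval of -0.04 to 0.24; BH-adjusted p (limma) of 0.472), and 0.0563 without replicate 3. QPCT, which encodes the secreted enzyme of the same activity, had values of 6.07, 5.95, 6.02 and 6.05 (pGRHL2) and 5.74, 5.85, 5.79 and 5.75 (pcDNA3). Its groups did not overlap, but its log2 FC of 0.24 ± 0.10 did not pass the threshold (BH-adjusted p (limma) of 0.0501, and 0.00197 to 0.233 over 12 other settings).

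The phosphatases had small log2 FC of opposite sign, and neither passed the test. PTPN6, on the plus strand of chromosome 12 (6946468 to 6961316), had values of 8.02, 7.99, 7.98 and 7.97 in pGRHL2 and 7.85, 7.88, 7.89 and 7.90 in pcDNA3. The pGRHL2 libraries all lay above the pcDNA3 libraries. The log2 FC was 0.11 ± 0.05 (SD, n = 4 pairs; 95% confidence interval of -0.01 to 0.23; BH-adjusted p (limma) of 0.375), and only the fit that ignored the pairs called it (BH-adjusted p (limma) of 0.019). PTPN11, on the same strand (112418351 to 112509918), had values of 10.08, 10.09, 10.12 and 10.05 in pGRHL2 and 10.16, 10.16, 10.13 and 10.19 in pcDNA3. The pGRHL2 libraries all lay below the pcDNA3 libraries, with a difference of only -0.0058 in pair 3. The log2 FC was -0.07 ± 0.05 (SD, n = 4 pairs; 95% confidence interval of -0.20 to 0.05; BH-adjusted p (limma) of 0.585). Flipping the signs of the pair differences (exact test, two-sided) gave p = 0.125 for either gene, the smallest value that 4 pairs allow.

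THBS1, on the plus strand of chromosome 15 (39581079 to 39599466), had values of 10.98, 11.04, 10.98 and 10.95 in pGRHL2 and 11.03, 10.97, 11.03 and 11.06 in pcDNA3. The groups overlapped, with pair 2 higher and the other 3 pairs lower in pGRHL2. The log2 FC was -0.03 ± 0.08 (SD, n = 4 pairs; 95% confidence interval of -0.15 to 0.09; BH-adjusted p (limma) of 0.849), and between -0.0679 without replicate 2 and -0.0049 without replicate 4. THBS1 shared 7.58% of its exon bases with FSIP1 and THBS1-AS1, QPCTL 1.91% with SNRPD2 and PTPN11 0.825% with RPL6, and reads counted without strand cannot be assigned there.

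**Figure D2:**
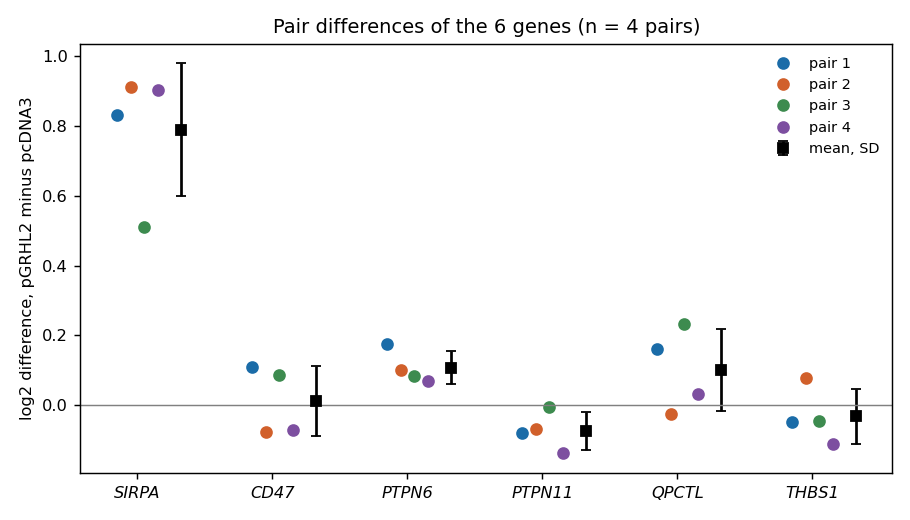
Log2 difference between the pGRHL2 and pcDNA3 libraries of the same number (vertical axis) for the 6 genes, with a point for each pair and black squares with bars giving the mean and SD (n = 4 pairs). SIRPA lies between 0.51 and 0.91 and the other 5 genes between -0.14 and 0.23.

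Over the 6 genes, limma called 1 higher (SIRPA) and 0 lower at an adjusted p under 0.05, and 1 had an unadjusted p under 0.05. Over all genes, 16.0% had an unadjusted p under 0.05 and 2.19% were called, 1.69% higher and 0.501% lower, and 77.1% of the calls were higher (66.8% once trends on level, transcript length and GC content were removed, 56.1% without the pairs and 43.8% among genes with a mean of 5 or more). The groups did not overlap for 3 of the 6 genes (SIRPA, PTPN6 and PTPN11), compared with 24.0% of all genes. Nothing is read from these counts, since they include the gene that was chosen for them. The median log2 FC was 0.06 over the 6 genes and 0.0017 over all genes.

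The 5 partners lay within the usual spread of genes of their own level. A larger absolute log2 FC was found for 83.7% of 1120 genes at the level of CD47 and for 70.3% of 900 genes at that of THBS1. It was found for 41.0% of 1500 genes at the level of PTPN11, 30.7% of 1761 at that of QPCTL and 27.0% of 2106 at that of PTPN6. The SD between pairs was 0.19 in SIRPA, against a median of 0.07 among genes of its level. In PTPN6 it was 0.05 against 0.13, and in PTPN11 0.05 against 0.11.

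**Figure D3:**
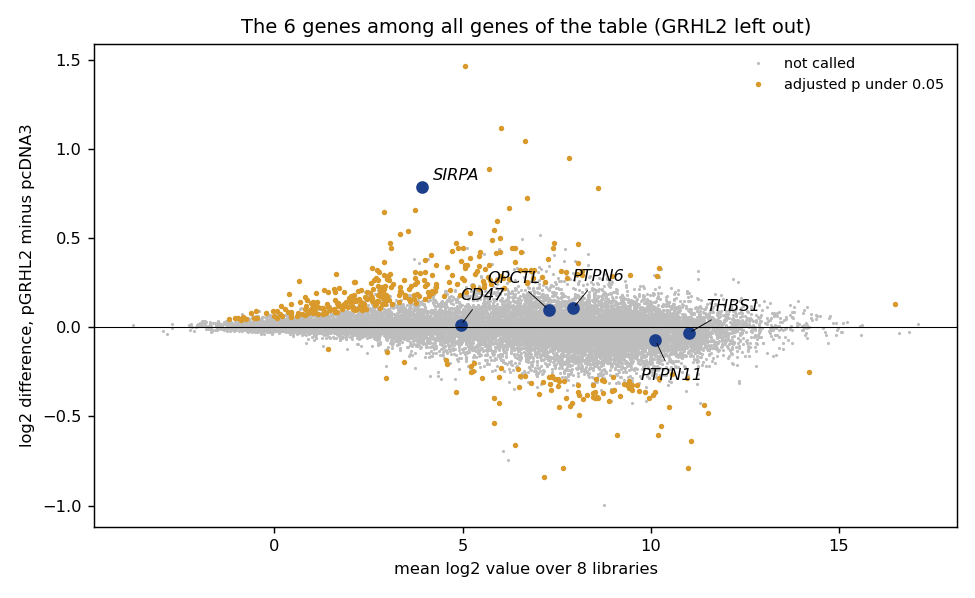
Log2 difference between pGRHL2 and pcDNA3 (vertical axis) against the mean log2 value over the 8 libraries (horizontal axis) for all genes but GRHL2, with called genes in orange and the 6 genes in blue. SIRPA, at a level of 3.91, stands above the genes of similar level, and the other 5 genes lie among genes that were not called.

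As deposited, per mean transcript length, the mean log2 levels were 11.01 for THBS1, 10.12 for PTPN11, 7.94 for PTPN6, 7.28 for QPCTL, 4.95 for CD47 and 3.91 for SIRPA. Each neighbouring pair in this order was further apart than its spread over libraries. The mean length counts short transcripts, however, and was 1527.5 bases for THBS1, whose longest transcript has 7789. With the longest transcript in its place, a setting chosen after seeing the data, the levels were 9.26 for PTPN11, 8.65 for THBS1, 6.67 for PTPN6, 6.60 for QPCTL, 3.85 for CD47 and 3.82 for SIRPA. PTPN11 then came before THBS1, and the ranges of PTPN6 and QPCTL overlapped in both groups. On that scale the order of SIRPA and CD47 differed between the groups, with SIRPA below CD47 in pcDNA3 (3.36 to 3.56 against 3.80 to 3.89) and above it in pGRHL2. Both phosphatase genes stood above the receptor and its ligand on either scale. The second scale takes the GENCODE mean as the length behind the deposited values, whereas the authors averaged Ensembl lengths, which may differ.

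The genes whose pair differences lay nearest to those of SIRPA were SLC44A2, TMEM200A, EFHD1, PALM3 and CYB561. Their Euclidean distances over the 4 pairs were 0.33, 0.33, 0.37, 0.46 and 0.52, and their log2 FC ranged from 0.60 (PALM3) to 0.89 (EFHD1). The distance uses the differences for which SIRPA was chosen, so high log2 FC were given in advance and are no separate evidence. The correlations of these 5 genes with SIRPA over the 8 libraries were 0.95 to 0.99. This says little, since 387 genes had one above 0.95 and all share the plasmid contrast and the equal pair means. TMEM200A (mean level of 3.73) was the closest of them to SIRPA in level.

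Within 500 kb of SIRPA, 11 other genes that were protein-coding or measured were annotated, and 2 of these had values. STK35, a kinase gene 161.2 kb away, had a log2 FC of -0.18 ± 0.08, without passing the test (BH-adjusted p (limma) of 0.179). It was lower in 4 of 4 pairs, and 24.0% of all genes had a single sign in all pairs. NSFL1C, a gene of a p97 cofactor 420.3 kb away, had a log2 FC of 0.02 ± 0.06 (BH-adjusted p (limma) of 0.922).

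The remaining pathway was read from 6 partly overlapping lists, with 54 measured genes of 61 besides the 6 above. Of these, limma called 3 higher (5.56%, against 1.69% of all genes) and 0 lower. An unadjusted p under 0.05 was found for 13 (24.1%, against 16.0% of all genes), and the groups did not overlap for 31.5% (against 24.0%). These shares were not tested against each other, and the lists were written with earlier results of these data known. The median log2 FC was 0.01. The called genes were ITGA3, MFGE8 and SFTPD. ITGA3 alone kept its call in each of the 12 other settings tried for it.

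Among ligands of SIRPA and glutaminyl cyclases, 1 of 3 measured genes was called higher (1.69% of all genes) and 0 lower (0.501%). SFTPD encodes surfactant protein D, a lung collectin that binds SIRPA. Its values lay between 0.48 and 0.49 in pGRHL2 and between 0.41 and 0.43 in pcDNA3, a small difference near the bottom of the scale. The log2 FC was 0.06 ± 0.01 (n = 4 pairs, BH-adjusted p (limma) of 0.0421), and the call was lost without any one replicate (0.0932 to 0.164) and in 4 other settings, the highest limma adjusted p being 0.414. SFTPA2, for surfactant protein A2, had a log2 FC of 0.02 ± 0.02 (BH-adjusted p (limma) of 0.414).

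Among thrombospondins and their receptors, 1 of 14 genes was called higher (1.69% of all genes) and 0 lower (0.501%). The median log2 FC was -0.0009. ITGA3, integrin alpha 3, had values of 8.35, 8.20, 8.31 and 8.34 in pGRHL2 and 7.30, 7.45, 7.34 and 7.31 in pcDNA3. The groups were far apart, and ITGA3 rose by a log2 FC of 0.95 ± 0.14 (SD, n = 4 pairs; BH-adjusted p (limma) of 6.59e-04), rank 5 among all genes. The study had selected ITGA3 as a GRHL2 target partly for its induction by GRHL2, so that this p-value is no separate evidence. ITGB1, the integrin partner of ITGA3, was not called (BH-adjusted p (limma) of 0.908). COMP and THBS2, which are thrombospondins, had log2 FC of 0.21 ± 0.14 and 0.08 ± 0.06, and ITGAV, integrin alpha V, -0.08 ± 0.07 (BH-adjusted p (limma) of 0.131, 0.126 and 0.523).

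Among other signals of phagocytosis, 1 of 13 genes was called higher (1.69% of all genes) and 0 lower (0.501%). The median log2 FC was 0.04. MFGE8 encodes a secreted bridge between phosphatidylserine on dying cells and integrins on phagocytes. Its values were 6.12, 6.19, 6.12 and 6.22 in pGRHL2 and 5.91, 5.85, 5.92 and 5.82 in pcDNA3. It rose by a log2 FC of 0.29 ± 0.10 (SD, n = 4 pairs; BH-adjusted p (limma) of 0.0278), but the call was lost without any one replicate (0.0716 to 0.123), with quantile normalization (0.0535) and with trends on level, length and GC content removed (0.0532). CD24, another "don't eat me" signal, had 0.21 ± 0.13 (BH-adjusted p (limma) of 0.146). AXL, a receptor for the uptake of dying cells, had 0.14 ± 0.33 (0.0474 to 0.2836 with a replicate left out), and its ligand GAS6 had 0.11 ± 0.08 (BH-adjusted p (limma) of 0.599 and 0.165).

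In the other 3 lists, limma called 0 genes in either direction, against 2.19% of all genes. Of 8 partners of the SIRPA tail, 1 had an unadjusted p under 0.05, against 16.0% of all genes. The kinases PTK2B and SRC had the largest log2 FC, 0.16 ± 0.16 and 0.13 ± 0.12 (BH-adjusted p (limma) of 0.257 and 0.352), followed by the kinases FYN (0.06 ± 0.08) and JAK2 (0.05 ± 0.12), whose sign turned without replicate 3. Of 11 genes of SHP-2 docking and RAS exchange, 3 had an unadjusted p under 0.05 (16.0% of all genes). Their median log2 FC was -0.04. SOS1, a RAS exchange factor, and FRS2, an adaptor of growth factor receptors, had -0.24 ± 0.06 and -0.18 ± 0.07. Both were lower in 4 of 4 pairs (BH-adjusted p (limma) of 0.0695 and 0.156), and 24.0% of all genes had a single sign in all pairs. SOS1 was called with arrayWeights (BH-adjusted p (limma) of 0.0364) and without the pairs (8.03e-04). CEACAM1, an epithelial receptor with inhibitory motifs, had 0.18 ± 0.14, and the adaptor GAB1 had -0.10 ± 0.13, or -0.139 to -0.0428 with a replicate left out (BH-adjusted p (limma) of 0.241 and 0.483). Of 10 partners of CD47, 1 had an unadjusted p under 0.05, against 16.0% of all genes. GNAI1, an inhibitory G protein subunit, had -0.24 ± 0.28, integrin ITGA2 -0.14 ± 0.20 (-0.2133 to -0.0579 with a replicate left out) and the mitochondrial protein gene BNIP3 0.12 ± 0.16 (BH-adjusted p (limma) of 0.272, 0.442 and 0.461).

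**Figure D4:**
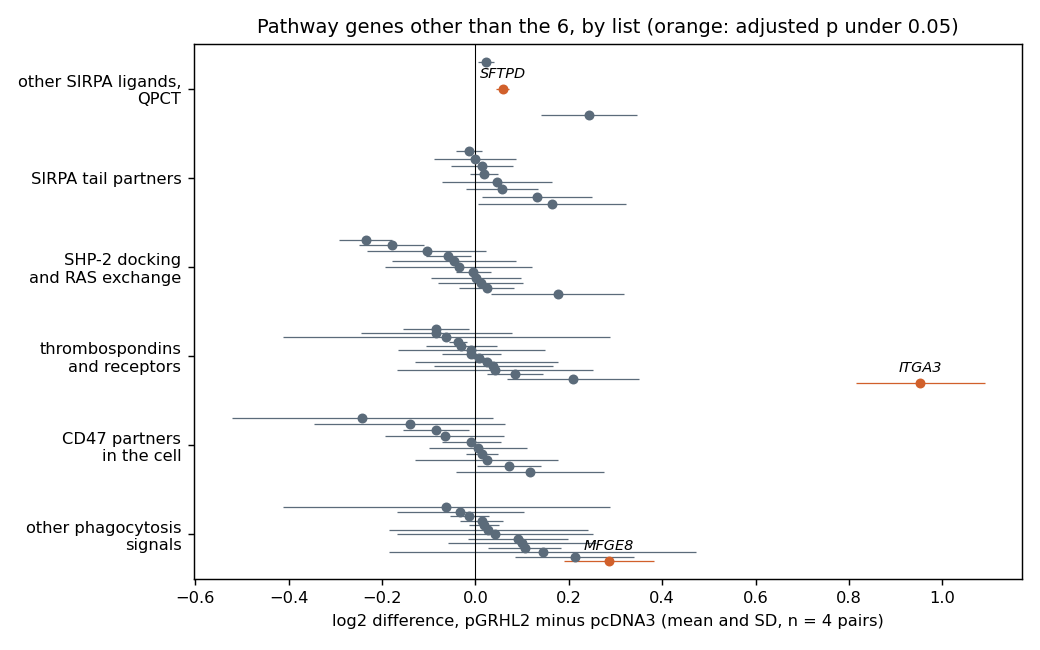
Log2 difference between pGRHL2 and pcDNA3 (horizontal axis, mean and SD of 4 pairs) for the measured genes of the 6 lists, with called genes in orange. ITGA3 stands apart at 0.95, with MFGE8 at 0.29 and SFTPD at 0.06, and the genes that were not called lie between -0.24 and 0.24.

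Since SIRPA and PTPN6 are typical of myeloid cells and THBS1 of stroma, markers of such cells were read. Of 11 myeloid markers, 5 had values (CD14, ITGAM, CD163, LYZ and FCER1G), and PTPRC, CSF1R, SPI1, CD68, AIF1 and TYROBP were not analysed here. Limma called 0 of the 5 (2.19% of all genes), and 0 had an unadjusted p under 0.05 (16.0% of all genes). Their summed level, mostly that of LYZ, was 13.2 to 13.4 in pGRHL2 and 13.1 to 13.3 in pcDNA3, so that the groups overlapped, and CD163 was near the bottom of the table at -0.66. Of 7 endothelial and stromal markers, 3 had values (PECAM1, VWF and COL1A1). Of these, 0 were called and 1 had an unadjusted p under 0.05 (16.0% of all genes). Their summed level was 6.71 to 6.79 in pGRHL2 and 6.60 to 6.68 in pcDNA3. The groups did not overlap, as for 24.0% of all genes, and the sum shared only the direction of SIRPA, higher in pGRHL2. The shift of the sum went with COL1A1 (log2 FC of 0.20 ± 0.10, BH-adjusted p (limma) of 0.0838). PECAM1 and VWF had log2 FC of 0.0004 ± 0.10 and 0.0061 ± 0.03. The part of these markers in the SIRPA result was not tested. All 8 hepatocyte markers had high levels (9.83 to 16.9), in keeping with the hepatic label. Of these, 0 were called and 1 had an unadjusted p under 0.05 (16.0% of all genes).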

How the data were processed

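RNA-seq values of HepG2 cells transfected with pGRHL2 or pcDNA3 (4 libraries each, grouped and numbered by the labels) were read from the deposited table. The authors aligned reads with HISAT2 (hg38; 2.2.1 in the submitters' processing notes), used HTSeq (0.9.1) for unstranded counts over exons, left out scarcely covered genes, and divided rlog values from DESeq2 (1.40.2) by mean transcript length. These versions are from the notes, and the authors' methods name others for HISAT2 and DESeq2. The deposited values are named FPKM but are log2, as 3.71% were negative and, in 2371 genes varying by under 0.05, the level fell with a slope of -0.835 on log2 length. A stray character was removed from 1 value. The study calls the replicates independent.

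Groups were compared with limma 3.58.1 (R 4.3.3; lmFit, eBayes with trend, replicate number as a block, Benjamini-Hochberg over 17561 genes, threshold of 0.05), after tests on simulated data. The block was used because pair means were equal (tolerance 1e-09), which makes a correlation check of the pairing void. Positions and lengths came from GENCODE release 44 (99.86% of symbols matched), and longest transcripts of the 6 genes had 0 copies on alternate contigs (98% identity over 50% of the length).

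The genes, lists and tests were chosen with earlier results of these data known. Named genes were the 6 genes, GRHL2, the called genes of each list and otherwise up to 4 with the largest absolute log2 FC, the 5 nearest to SIRPA, its neighbours in rank and those within 500 kb. Markers were given as lists. Alternatives were no block, robust eBayes, arrayWeights, median centring, quantile normalization, a mean of at least 5, removal of trends (splines with 5 degrees of freedom), an adjusted p under 0.01 and leaving out each replicate.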

Additional observations from a re-analysis of the deposited data

How the results depend on the processing

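The log2 FC of SIRPA ranged from 0.75 to 0.88 over 11 other settings, and PTPN6, PTPN11, QPCTL and THBS1 kept their direction in each setting tried, with QPCTL from 0.0563 to 0.142 and THBS1 from -0.0679 to -0.0049 when a replicate was left out. CD47 was -0.0047 with quantile normalization, -0.0089 with the level trend removed, and between -0.0204 and 0.0415 with a replicate left out. SIRPA and CD47 have no value at a mean of at least 5, which they do not reach. Without the replicate block, which treats the 8 libraries as unpaired, limma called PTPN6 (log2 FC of 0.11, adjusted p of 0.019), 11 pathway genes higher and 3 lower, and 1821 genes higher and 1427 lower. It changed no other call of the 5 partners. Genes higher and lower were 503 and 221 with arrayWeights, 184 and 57 with quantile normalization, 63 and 81 among genes with a mean of 5 or more, 188 and 66 after removal of the level trend, 149 and 74 with level, length and GC trends removed, and 77 and 10 at an adjusted p under 0.01. With a replicate left out, and so fewer samples, 79 to 156 were higher and 8 to 68 lower, the fewest of both without replicate 1. Pathway genes higher fell to 1 with quantile normalization, with level, length and GC trends removed, at an adjusted p under 0.01 and without any one replicate (from 1 to 1), and 1 was lower with arrayWeights. SFTPA2 was -0.0092 with level, length and GC trends removed, and JAK2 was between -0.0029 and 0.0819 with a replicate left out. Of 171 values of the named pathway genes in settings that keep all replicates, 152 kept direction and call, 6 lost a call, 12 gained one and 1 turned. Of 88 values with a replicate left out, 79 kept both, 8 lost a call and 1 turned, and 10 of the 22 genes moved by over 1.5 times in at least one such fit. Apart from the smaller samples and the degrees of freedom, the causes were not tested. The depth was unknown, and the effect of rlog on weakly expressed genes was not tested.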
